A study of Mus musculus with 8 samples.

Results

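The genes described here encode the proteins of the cytoplasmic ribosome. They were taken from a table of read counts as the protein-coding genes whose mouse symbol starts with Rpl or Rps, without the Rps6k kinases, the mitochondrial Mrp genes and the pseudogenes. Of 54837 identifiers in the table, 403 carried the prefix and 86 met the rule: 49 of the large subunit, 34 of the small subunit and the 3 stalk proteins Rplp0, Rplp1 and Rplp2. Of the others, 301 were not protein-coding, 6 were pseudogenes annotated as protein-coding and 10 were Rps6k genes. The prefix also caught Rps19bp1, which encodes a binding protein of Rps19, and Rpl7l1, which encodes a nucleolar relative of Rpl7. It missed genes such as Fau and Rack1, which encode ribosomal proteins under other names.

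RNA was sequenced from 8 libraries of CD4 cells sorted from mouse spleen. The comparisons with WT set cells with forced expression of the checkpoint receptor TIM-3 against cells without it. GFPhi (n = 3) was sorted as TIM-3+FLAG+GFP+FoxP3+ and GFPlow (n = 3, written GFPLow in the labels) as TIM-3+FLAG+GFP-FoxP3-, both from mice that join the Foxp3-eGFP-Cre-ERT2 allele to the FSF-TIM-3 transgene. WT (n = 2) has only the former allele and was sorted as TIM-3-FLAG-GFP+FoxP3+. All mice, the WT mice included, carry a Foxp3-driven eGFP and tamoxifen-activated Cre and were given tamoxifen for 5 days in a row. GFPhi and WT thus differ in the TIM-3 transgene and in the TIM-3 and FLAG gate. GFPhi and GFPlow share the genotype and the TIM-3 and FLAG gate and differ in the GFP and FoxP3 gate. GFPlow and WT differ in the transgene and in both gates at once. The titles call all 8 libraries Treg, also GFPlow, whose gate is FoxP3-. The labels do not say that libraries of a group came from separate animals, so p-values measure the spread between these libraries.

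Ribosomal proteins join ribosomal RNA to form the small subunit, which reads the message, and the large subunit, which joins amino acids. Their messages are short and abundant, and many begin with a 5′ terminal oligopyrimidine (TOP) tract, a C followed by a run of C or T bases, through which mTORC1 and Larp1 control their translation. T cells raise ribosome production when they leave quiescence, and regulatory T cells depend on mTORC1 signalling.

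Total counts ran from 44446215 to 55388756 per library, and values are TMM-scaled CPM, counts relative to the library's scaled total, unless a share is named. WT library 1 stood apart: it had counts for 18599 genes against 21248 to 22185 in the other 7 libraries, a TMM factor of 0.694 against 1.04 to 1.07, and a mitochondrial share of 6.54% against 2.35% to 2.78%. Havcr2, the TIM-3 gene, stood at 1524, 1077 and 1791 CPM in GFPhi, 260, 127 and 538 in GFPlow, and 0.876 and 0.172 in WT. Foxp3 stood at 60.1, 68.1 and 80.9 CPM in GFPhi, 2.45, 1.97 and 4.82 in GFPlow, and 41.6 and 63.2 in WT. All 8 T cell markers had counts in every library, and their sum was 12496 CPM in WT library 1 against 7862 to 9048 elsewhere. Gene by gene, only 3 of the 8 were higher in WT library 1 than in WT library 2, with a median log2 ratio of -0.64. In WT library 1, 5 of 6 platelet markers had a count (Tubb1 was at 0) with a sum of 40.8 CPM against 0.187 to 7.17 in the others. Gene by gene, only 2 of the 4 platelet markers tested were higher in WT library 1 than in WT library 2. The B cell markers Ms4a1 and Pax5 were at 0 in WT library 1.

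Ribosomal protein genes took a nearly constant share of the counts in 7 of the 8 libraries and a much larger one in WT library 1. The share was 7.13%, 7.16% and 6.82% in GFPhi (7.03% ± 0.188, SD, n = 3) and 6.90%, 6.71% and 6.82% in GFPlow (6.81% ± 0.0939, SD, n = 3). In WT it was 16.1% in library 1 and 7.57% in library 2. The 2 WT libraries thus differed far more than the GFPhi and GFPlow libraries did, and WT library 2 lay above all 6 transgenic libraries. The share of WT library 1 was 2.34 times the median of the other 7, and 2.47 times that median when taken of nuclear protein-coding counts alone. The 95% Wilson interval of each share is at most 0.0108 percentage points to either side. It covers counting error only, not differences between libraries. The reads carry no molecular identifiers, so duplicate reads cannot be set apart and the interval may be too narrow even for that. In bulk libraries of this kind, more cells with many of these messages and more message per cell cannot be told apart.

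**Figure D1:**
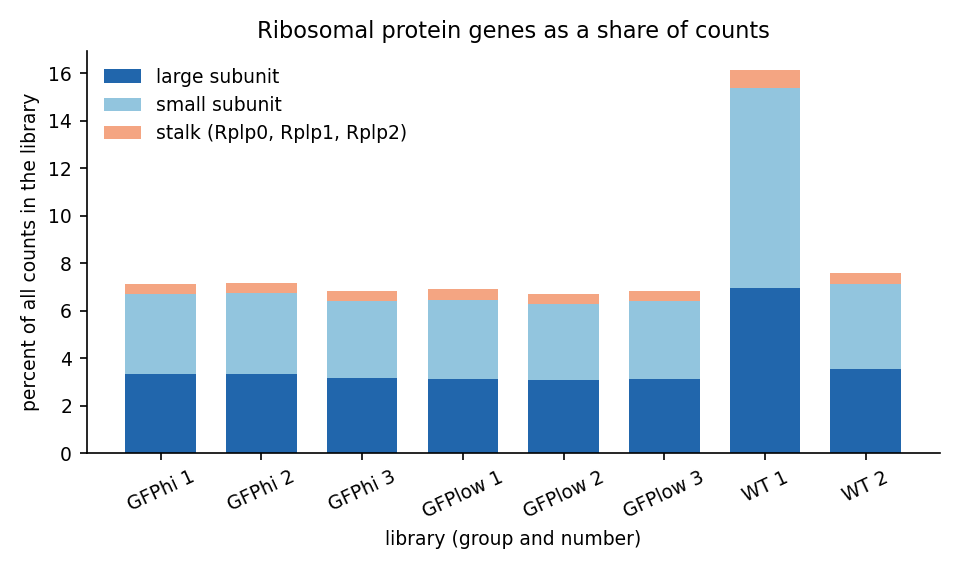
Stacked bars give the percent of all counts in each of the 8 libraries that fell on large subunit, small subunit and stalk genes. WT library 1 reaches 16.1%, while the other 7 libraries lie between 6.71% and 7.57%.

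Both subunits and the stalk had larger shares in WT library 1, but not in the same proportion. Large subunit genes took 6.97% of its counts against 3.07% to 3.53% in the others. Small subunit genes took 8.42% against 3.21% to 3.60%. The ratio of large to small subunit counts was therefore 0.828 in WT library 1 and 0.937 to 0.992 elsewhere. The stalk genes, whose proteins recruit the elongation factors, took 0.756% against 0.403% to 0.444%, and their part of all ribosomal protein counts was lower, at 4.68% against 5.78% to 6.50%. Pseudogene copies of ribosomal protein genes, 307 entries, took 0.627% against 0.265% to 0.307%, so reads assigned to copies were higher in the same library.

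Within each library the genes differed widely in level. Per kilobase of exon and averaged over the 8 libraries, the highest included Rpl36 of the large subunit (2873 CPM per kb), Rps27 of the small subunit (2697) and the stalk protein gene Rplp1 (2457). Without WT library 1 these levels were 2002 for Rpl36, 1801 for Rps27 and 1738 for Rplp1. The lowest of the 84 genes that passed the filter on low counts were Rpl39l (1.88 CPM per kb), Rps10 (5.83), Rpl13a (14.7) and Rpl36al (28.2). Rpl10l had no count in any library, where 3 counts would be 0.0517 to 0.0973 CPM, and Rpl3l had 0 to 21 counts. Neither passed the filter in the fit to all 8 libraries, and Rpl3l passed it without WT library 1, where 85 genes were tested. Rpl10l is known from testis and Rpl3l from striated muscle.

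Some of the lowest genes overlap other annotated genes. Exons of another gene on the same strand covered part of 28 of the 84 genes, most of them small nucleolar RNAs, and 45 genes had no overlap on either strand. The covered part was 35.4% of the exonic bases of Rpl13a, 24.5% of Rpl36al and 20.6% of Rps10, each shared with an annotated protein-coding gene. The median level without WT library 1 was 225 CPM per kb over the 28 genes and 391 over the 45. Whether reads in shared exons were dropped or kept is not given in the sources used here, so these levels are uncertain.

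Gene by gene, WT library 1 lay above WT library 2 for 83 of the 84 genes tested. The log2 ratio of WT library 1 to WT library 2, on CPM + 0.5, had a median of 1.90 over the 84 genes and -0.12 over all 18851 genes tested. It was above 1 for 76 ribosomal protein genes (90.5%) against 17.7% of all genes. The medians were 1.67 for the large subunit (n = 47), 1.96 for the small subunit (n = 34) and 1.98 for the stalk (n = 3). The 6 transgenic libraries set against the same WT library had medians between -0.20 and -0.06. With scaling by total counts alone, the median for WT library 1 was 1.30. Each ratio compares 1 library with 1, so no test was made.

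**Figure D2:**
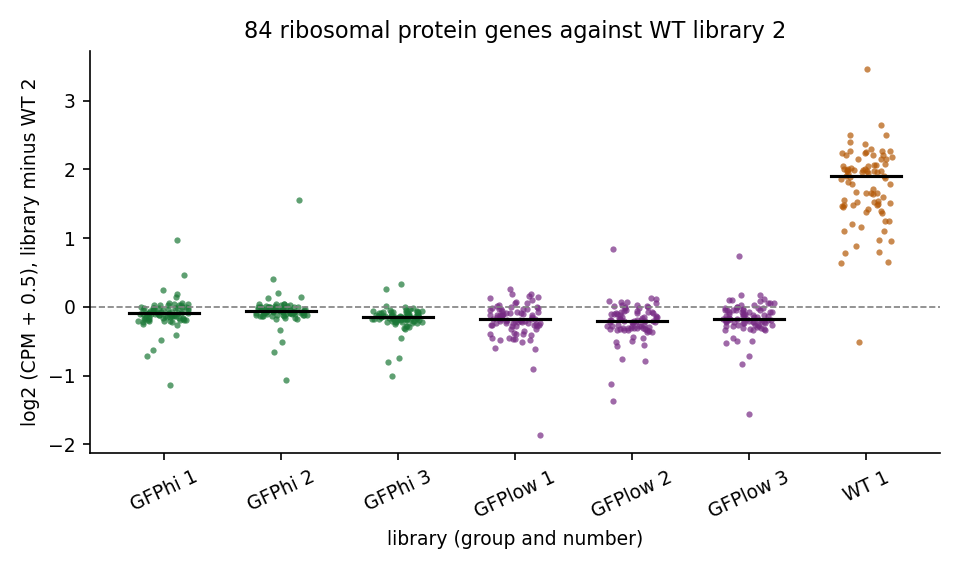
Each point is 1 of 84 ribosomal protein genes, its height the log2 difference in CPM + 0.5 between a library and WT library 2, and black bars are medians. The median is 1.90 for WT library 1 and lies between -0.20 and -0.06 for the 6 transgenic libraries.

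The genes with the largest ratios were short ones. Rpl22l1, a paralog of Rpl22, stood at 543 CPM in the first and 86.7 in the second WT library (log2 ratio 2.64), with 72.8 to 95.9 in the transgenic libraries. Rpl35a had a log2 ratio of 2.50, with 780.0 CPM against 137, and Rpl30, a large subunit protein, one of 2.40. Rps27l, a paralog of Rps27 known as a p53 target, had a ratio of 2.50. The largest ratio, 3.46, belonged to Rpl39l at only 7.65 and 0.241 CPM, so it rests on few counts.

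Rpl3, whose protein lies next to the peptidyl transferase centre, was the only one of the 84 that was lower in WT library 1. It stood at 1793, 1843 and 1602 CPM in GFPhi, 1669, 1691 and 1661 in GFPlow, and 1354 and 1936 in WT (log2 ratio -0.52). The next lowest ratios were 0.63 for Rpl7l1, 0.64 for Rpl4, 0.78 for Rpsa and 0.80 for Rplp0. Rpl4 lines the exit tunnel of the large subunit, Rpsa is the laminin receptor protein of the small subunit and Rplp0 is the base of the stalk. The other stalk genes had larger ratios, 2.05 for Rplp1 and 1.98 for Rplp2. Rplp0 thus stood at 4566 and 2615 CPM in the WT libraries, a 1.75-fold ratio, where Rplp1 stood at 3738 and 899.7, a 4.15-fold ratio.

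Coding length ordered these ratios. Across the 84 genes the log2 ratio of WT library 1 to WT library 2 correlated with coding length at a Spearman rho of -0.80 and a Pearson r of -0.80, a description across genes, which share these 2 libraries and are not independent. Across 7956 other protein-coding genes above 10 CPM the rho was -0.44 and the r -0.21. The GFPhi to GFPlow difference had a rho of -0.03 with coding length over the same 84 genes.

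Up to 900 bases of coding sequence, other genes of the same length were also higher in WT library 1 than in WT library 2, though less so than ribosomal protein genes. For coding lengths up to 300 bases the median log2 ratio was 2.18 over 10 ribosomal protein genes and 1.79 over 160 other genes. Between 300 and 600 bases it was 1.98 over 48 and 1.03 over 925 genes, and between 600 and 900 bases 1.45 over 21 and 0.27 over 1113. Between 900 and 1500 bases, 4 ribosomal protein genes had a median of 0.72 and 2279 other genes one of -0.37. Above 1500 bases there was no ribosomal protein gene, and the medians of other genes were -0.68 up to 3000 bases and -0.57 beyond. These bins leave out Rpl39l, which is under 10 CPM. The number of genes detected, the mitochondrial share and the sum of the platelet markers given above also set WT library 1 apart. Their part in the result was not tested.

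**Figure D3:**
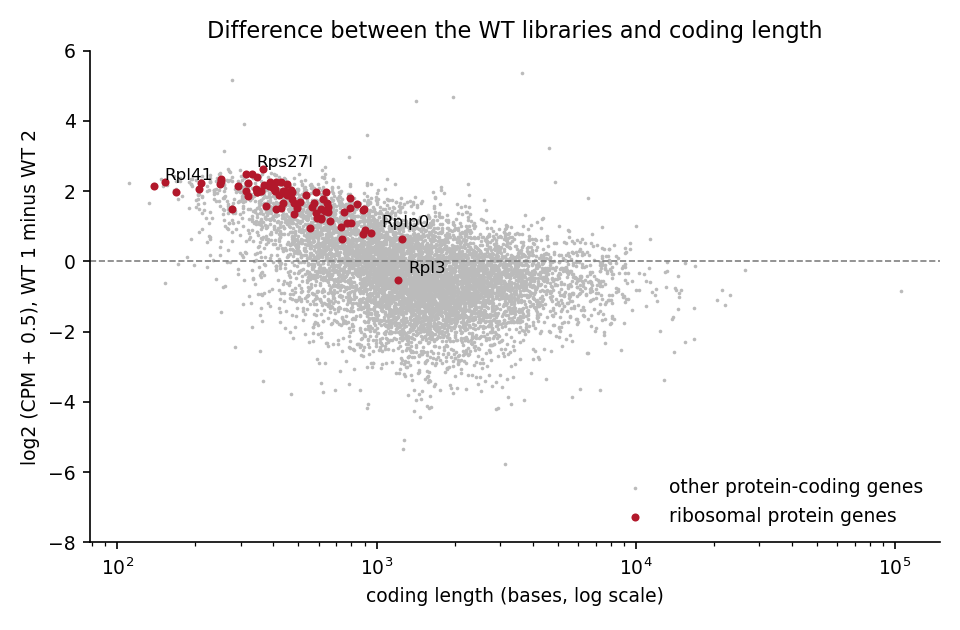
Points are protein-coding genes above 10 CPM, with coding length in bases on a log axis and the log2 difference between WT libraries 1 and 2 on the vertical axis. Ribosomal protein genes lie at short lengths, fall from a median of 2.18 up to 300 bases to 0.72 between 900 and 1500 bases, and only Rpl3 lies below 0.

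In GFPhi against WT no ribosomal protein gene passed the test, although 83 of 84 had fitted levels below WT. By edgeR's quasi-likelihood test with Benjamini-Hochberg adjustment over 18851 genes, 0 of 84 were called at an adjusted p under 0.05, and 0.0% of all genes were. At an unadjusted p under 0.05 there were 74 of the 84 genes and 2588 of all genes. The median fitted log2 difference was -1.38 over the 84 and 0.08 over all genes, and the smallest adjusted p was 0.348. DESeq2 called 58 of the 84, all lower, against 1.67% of all genes lower and 1.7% in either direction. It gave no adjusted p to 9 of the 84, which thus could not be called. These percentages are of all 18851 genes, also those without an adjusted p, whose number is not given. The background is thus not strictly like for like. By limma voom with quality weights 0 of the 84 and 0.0% of all genes were called. At an unadjusted p under 0.05 that fit had 53 of the 84 and 293 of all 18851 genes. All 3 GFPhi libraries lay below both WT libraries for 60 of 84 genes (71.4%), against 12.6% of all genes, and above both for none.

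The 5 genes with the smallest p in that comparison were Rpl15, Rpl17, Rpl23a, Rps15a and Rps27rt. Rpl15, a large subunit protein, stood at 283, 297 and 267 CPM in GFPhi and 1109.5 and 468 in WT. Rpl23a, which sits at the mouth of the exit tunnel, stood at 29.6, 36.4 and 33.4 CPM in GFPhi and 179.6 and 46.2 in WT. In both, WT library 1 was far higher than WT library 2. The fitted log2 differences were -1.48 ± 0.35 (SE) for Rpl15 and -1.77 ± 0.48 for Rpl23a, each with an adjusted p of 0.348 in edgeR. Exons of Tlcd1 on the opposite strand cover 59.7% of the exonic bases of Rpl23a, so its reads cannot be assigned without strand.

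The size of the GFPhi to WT difference rested on WT library 1. Without it, the median fitted difference was -0.11 over 85 genes, 77 of them below 0, and edgeR called 0 (0.0% of 20545 genes), with 9 at an unadjusted p under 0.05. DESeq2 on the same 7 libraries also called 0 of the 85, against 0.35% of all genes, with 8 at an unadjusted p under 0.05. Without WT library 2 instead, the median was -1.99 and edgeR called 83 of 85, of which 82 were lower, against 40.1% of all genes called and 16.0% lower. Each of these fits has a single WT library, whose spread is taken from the transgenic groups.

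GFPlow against WT gave 2 calls, Rpl17 and Rps2, both lower, which is 2.38% of the 84 genes against 3.3% of all genes tested and 2.23% of them lower. The other 81 genes with a fitted difference below 0 did not pass, and the median was -1.40. Rpl17, a large subunit protein at the exit tunnel, stood at 15.7, 22.2 and 19.4 CPM in GFPlow and 114 and 58.4 in WT. It fell by 2.18 ± 0.34 (SE) on the log2 scale, with an adjusted p of 0.0146 in edgeR. Rps2, a small subunit protein at the mRNA entry channel, stood at 362, 319 and 334 CPM in GFPlow and 1017 and 551 in WT, and fell by 1.21 ± 0.26 (SE) with an adjusted p of 0.0491 in edgeR. The groups do not overlap for either gene.

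Both calls depended on the libraries and the fit. Leaving out any 1 GFPlow library ended the call of Rpl17, with an adjusted p of 0.0768, 0.0578 and 0.071 in edgeR, and that of Rps2. Leaving out any 1 GFPhi library also ended the call of Rps2, with adjusted p values in edgeR of 0.113, 0.114 and 0.11. Leaving out WT library 1 gave 8 calls of 85 (9.41%), all lower, against 5.88% of all genes called and 3.39% lower. Among them Rps2 fell by 0.70 ± 0.09 (SE, adjusted p 0.00417 in edgeR), Rps15a by 0.46 ± 0.07, Rpl17 by 1.61 ± 0.27, Rpl37 by 0.43, Rpl38 by 0.41, Rpl26 by 0.34 and Rpl32 by 0.29. The median of all 85 genes was -0.17 in that fit, and without WT library 2 instead, 84 of 85 were called, 83 of them lower, against 43.9% of all genes called and 18.9% lower. All 3 GFPlow libraries lay below both WT libraries for 66 of 84 genes (78.6%), against 19.2% of all genes.

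GFPhi against GFPlow is the comparison that uses no WT library, and its differences were small. In the fit to all 8 libraries edgeR called 0 of 84 genes, against 2.26% of all genes. At an unadjusted p under 0.05 there were 1 of the 84 and 2194 of all genes. DESeq2 also called 0, against 7.29% of all genes, with 1 of the 84 and 2765 of all genes at an unadjusted p under 0.05. Limma voom with quality weights called 2, Rps2 and Rpl17, against 12.1% of all genes. The median fitted log2 difference was 0.06, against 0.01 over all genes, and 64 of 84 genes lay above 0, against 51.2% of all genes. All GFPhi libraries lay above all GFPlow libraries for 31 genes and below them for 5, together 42.9% of the 84 against 30.0% of all genes. By direction that compares with 16.0% of all genes above and 14.0% below. The 5 genes with the smallest p were Rpl17 (0.81 ± 0.31, SE), Rps2 (0.50 ± 0.24), Rpl7a (0.38), Rpl7l1 (0.23) and Rps27l (0.46), with adjusted p values of 0.324 or more in edgeR.

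Markers of other cells also separated GFPhi from GFPlow. The 4 natural killer cell markers summed to 1.28 to 2.67 CPM in GFPhi and 24.5 to 61.2 in GFPlow, and to 9.02 and 1.59 in the WT libraries. Between 1 and 3 of the 4 had a count in each GFPhi library, with Klra8 at 0 in all 3, and 2, 2 and 4 in the GFPlow libraries, with Klra8 and Ncr1 at 0 in the first 2. The 5 neutrophil markers summed to 0.244 to 0.834 CPM in GFPhi and 2.80 to 10.7 in GFPlow. Of the 5, 2 were counted in each GFPhi library and 1 to 3 in GFPlow, with Ly6g at 0 in all 6. In GFPlow libraries 1 and 3 Retnlg, S100a8 and S100a9 were also at 0, so those sums are Mmp9 alone. The sum of the 4 plasma cell markers went the other way, at 159 to 190 CPM in GFPhi and 112 to 135 in GFPlow. Gene by gene that list was mixed: of the 3 tested in the fit to all 8 libraries, 2 lay above 0 and 1 below. Of the 4, the GFPhi libraries had counts for 4, 2 and 3 and the GFPlow libraries for 3, 3 and 2. The zeros fell on Mzb1 and Sdc1. The 6 myeloid markers summed to 1.86, 0.339 and 22.6 CPM in GFPhi and 20.8, 5.06 and 231 in GFPlow, so these groups overlapped. Of the 6, 4 or 5 were counted in GFPhi and 4 to 6 in GFPlow, with Cd14 at 0 in 2 libraries of each group. Whether such cells were present, and their part in the differences, was not tested.

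Both WT libraries enter that fit through the shared estimate of spread, and edgeR fits without either one or without both called more genes, ribosomal protein genes and others. With only the 6 transgenic libraries edgeR called 11 of 84 genes (13.1%), against 12.3% of all 17056 genes tested, so in edgeR the share was close to the background. Of these, 8 were higher and 3 lower in GFPhi, against 6.87% and 5.48% of all genes. With 7 libraries, WT library 1 left out, 9 of 85 were called (10.6%) against 9.66% of all genes, 6 of them higher and 3 lower against 5.35% and 4.3%, and all 9 were among the 11. Without WT library 2 instead, 11 of 85 were called (12.9%) against 9.64% of all genes. DESeq2 on the 7 libraries without WT library 1 called 23 of 85 (27.1%) against 15.8% of all genes. Of these, 18 were higher and 5 lower in GFPhi, against 8.61% and 7.19% of all genes. The genes below were named from these fits, after their values were seen.

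The small subunit genes that were higher in GFPhi were Rps2, Rps27l, Rps15a and Rps26. Rps2 (chr17:24718116-24721929, GRCm38, plus strand) stood at 459, 503 and 473 CPM in GFPhi, 362, 319 and 334 in GFPlow, and 551 in WT library 2. All GFP+ libraries lay above all GFPlow libraries. With 7 libraries Rps2 rose by 0.49 ± 0.06 (SE) on the log2 scale in GFPhi against GFPlow, with an adjusted p of 0.00287 in edgeR. Rps27l (chr9:66946086-66949516, plus strand) stood at 163, 187 and 168 CPM in GFPhi, 119, 123 and 136 in GFPlow, and 169 in WT library 2. It rose by 0.45 ± 0.08 (SE), with an adjusted p of 0.0117 in edgeR. Rps15a, a protein of the small subunit body, rose by 0.25 ± 0.05, and Rps26, which lies at the mRNA exit channel, by 0.26 ± 0.06.

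The large subunit genes that were higher in GFPhi were Rpl38, Rpl37, Rpl39 and Rpl17. Rpl38, known for its role in the translation of Hox messages in the mouse embryo, stood at 248, 255 and 244 CPM in GFPhi, 203, 188 and 213 in GFPlow, and 269 in WT library 2. It rose by 0.30 ± 0.06 (SE) with 7 libraries, and Rpl37, a zinc-binding protein, by 0.26 ± 0.06. Rpl39, an X-linked exit tunnel protein, and Rpl17 passed with the 6 transgenic libraries but not in edgeR's fit without WT library 1, and passed without WT library 2. With the 6, Rpl39 rose by 0.26 ± 0.07, and Rpl17 by 0.81 ± 0.21 with an adjusted p of 0.0469 in edgeR. Rpl17 was at 44.0, 27.6 and 28.9 CPM in GFPhi, so its GFPhi libraries spread more than those of the other genes named.

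Rps27, Rps29 and Rpl14 went the other way. Rps29, a zinc-binding protein of the small subunit head, stood at 1148, 1109 and 1036 CPM in GFPhi, 1383, 1253 and 1302 in GFPlow, and 1156 in WT library 2. Rps27 stood at 1649, 1758 and 1766 CPM in GFPhi, 2163, 1922 and 1986 in GFPlow, and 1908 in WT library 2. With 7 libraries they fell by 0.26 ± 0.06 and 0.24 ± 0.05 (SE) on the log2 scale in GFPhi against GFPlow, and Rpl14, a large subunit protein, fell by 0.19 ± 0.05. For Rps29 all GFP+ libraries other than WT library 1 lay below all GFPlow libraries.

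**Figure D4:**
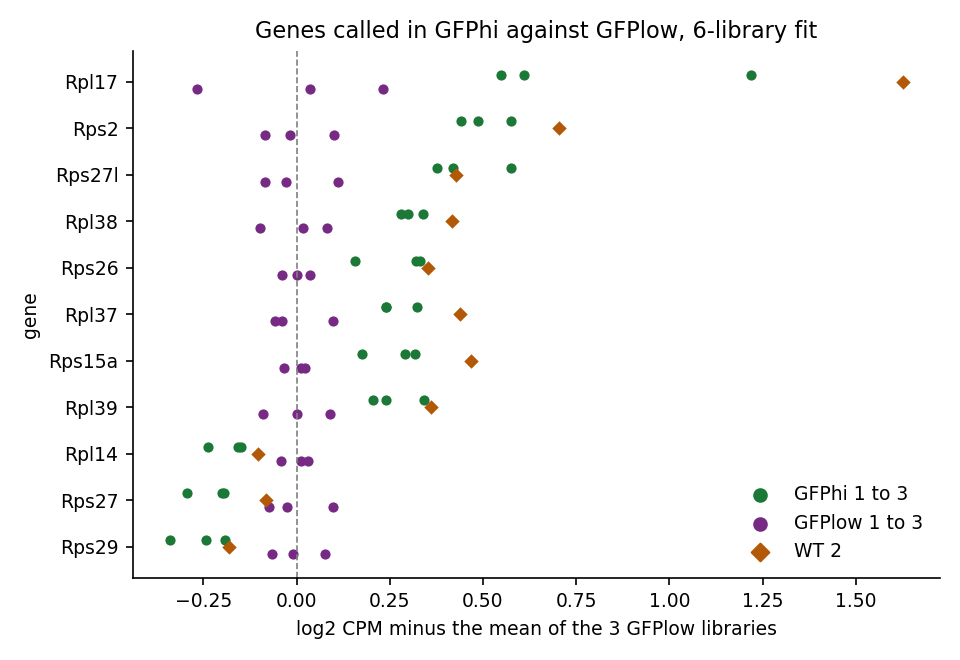
For the 11 genes called with the 6 transgenic libraries, each point is a library's log2 CPM minus the mean of the 3 GFPlow libraries. Diamonds are WT library 2, which took no part in those calls. GFPhi and GFPlow do not overlap for any of the 11 genes, and 8 lie to the right of 0. The genes were chosen by a test on these same 6 libraries, so the lack of overlap is no separate support. Of all genes, 30.0% do not overlap between these groups.

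The start sites of Rps27 and its paralogs are shown beside those of 3 other genes named above, because TOP tracts mark some and not others. The windows below run from 10 bases before the RefSeq start (GRCm38.p6) to 20 bases from it, on the gene's own strand, 5′ to 3′, and capitals mark a tract that begins with C at the annotated start and goes on with at least 4 bases that are C or T.
Rps27, chr3:90213629-90213658, minus strand: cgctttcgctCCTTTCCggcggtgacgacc
Rps27rt, chr9:114982720-114982749, minus strand: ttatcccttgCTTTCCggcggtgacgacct
Rps27l, chr9:66946076-66946105, plus strand: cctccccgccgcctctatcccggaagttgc
Rps2, chr17:24720053-24720082, plus strand: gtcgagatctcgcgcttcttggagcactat
Rpl38, chr11:114668570-114668599, plus strand: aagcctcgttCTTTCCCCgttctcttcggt
Rps15a, chr7:118116128-118116157, minus strand: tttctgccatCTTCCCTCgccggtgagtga
Rps27 and Rps27rt share the letters CTTTCC and the bases that follow them, whereas the annotated starts of Rps27l and Rps2 carry none. Rpl38 and Rps15a carry a tract and were higher in GFPhi, and Rps27 carries one and was lower.

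Start-site sequence was found for 66 of the 86 genes. A tract at the annotated start was present in 14 of the 66 (21.2%) against 3.01% of 27025 genes with sequence. The letters CTTTCC on the sense strand within 50 bases of the start were present in 21 (31.8%) against 5.43%. The letters CCGGAAG, the core bound by Ets factors, were present on either strand of the 300 bases in 26 (39.4%) against 9.93%. A match is a description of the letters and depends on where the start was annotated. The median log2 ratio of WT library 1 to WT library 2 was 2.08 over the 14 genes with a tract and 1.87 over the 50 tested without one. The median GFPhi to GFPlow difference was -0.01 and 0.07.

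The balance of Rps27l to Rps27 separated the GFP+ from the GFPlow libraries. Rps27l was 9.90%, 10.7% and 9.52% of the Rps27 CPM in GFPhi, 5.48%, 6.42% and 6.83% in GFPlow, and 10.3% and 8.87% in WT. Every GFP+ library, WT library 1 included, thus lay above every GFPlow library. Rps27l was called higher and Rps27 lower in GFPhi in the fits above, so the split between GFPhi and GFPlow follows from those calls. The coding sequences of Rps27 and Rps27l are 61.0% identical. Rps27rt is a different case: its coding sequence is identical to that of Rps27 at all 252 bases, and it stood at 4.06% to 4.28% of Rps27 in all 8 libraries. Its counts may be reads of Rps27 and are uncertain.

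**Figure D5:**
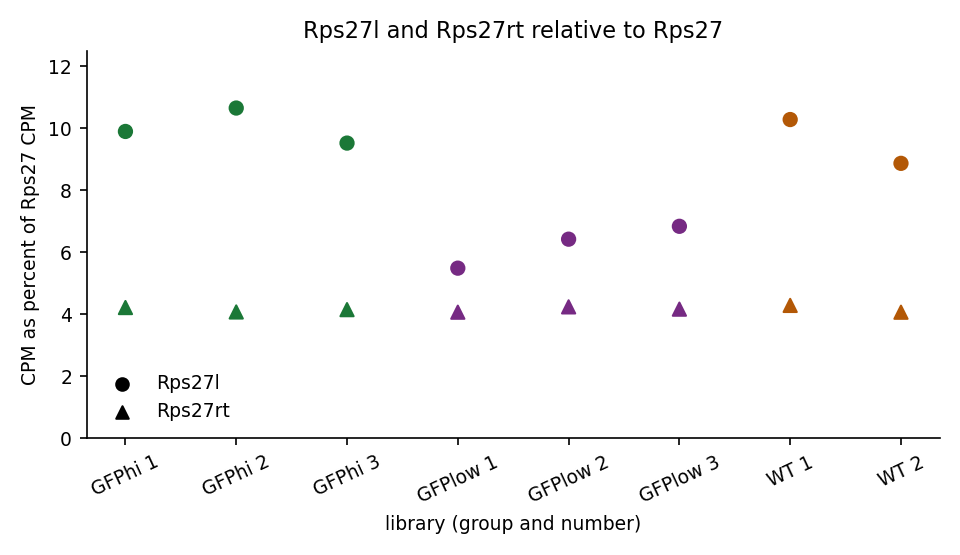
Circles give Rps27l and triangles Rps27rt as a percent of the Rps27 CPM in each library, coloured by group. Rps27l lies at 8.87% to 10.7% in the 5 GFP+ libraries and at 5.48% to 6.83% in GFPlow, while Rps27rt stays at 4.06% to 4.28%.

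The other paralogs showed no such split. Rpl22l1 was 27.4% to 41.1% of Rpl22 in 7 libraries and 41.3% in WT library 1, with groups that overlap. Rpl36al was 8.54% to 11.7% of Rpl36a and 7.52% in WT library 1, and Rpl7l1 was 8.49% to 10.5% of Rpl7 and 4.64% in WT library 1. Rpl39l, a gene known from testis, stayed under 0.463% of Rpl39 in all libraries. Coding identity was 68.2% for Rpl22l1, 87.7% for Rpl36al, 54.0% for Rpl7l1 and 85.0% for Rpl39l.

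Relative to the ribosomal protein total, most genes kept a steady part. Leaving out WT library 1, the SD of the log2 share of that total had a median of 0.08 over the 84 genes, and was largest for Rpl39l (1.44), Rpl17 (0.62), Rps27a (0.41), Rpl23a (0.30) and Rpl15 (0.30). Rps27a, which encodes ubiquitin fused to a small subunit protein, stood at 240.4, 539 and 497 CPM in GFPhi, 414, 354 and 499 in GFPlow, and 2181 and 528 in WT. Its spread lies within groups, with GFPhi library 1 low. With WT library 1 included, the largest SDs were those of Rpl39l (1.54), Rpl3 (0.77), Rpl17 (0.58), Rps27a (0.42) and Rpl7l1 (0.40). The 86 genes lie on 19 chromosomes, and 4 are X-linked: Rpl10, Rpl36a, Rpl39 and Rps4x, with log2 ratios of WT library 1 to WT library 2 of 1.65, 2.23, 2.27 and 1.51.

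Ribosomal proteins outside the prefix and small nucleolar RNA hosts were also higher in WT library 1, and other lists around the ribosome differed less. Fau, which encodes a small subunit protein fused to a ubiquitin-like one, stood at 1500 and 513 CPM in the WT libraries, and Rack1, a scaffold on the small subunit, at 2321 and 1018. The 9 small nucleolar RNA host genes summed to 4.14 times the median of the other 7 libraries, with Gas5 at 2243 CPM against 445 to 548. The 78 mitochondrial ribosomal protein genes summed to 2.73 times that median and the 12 other genes with TOP messages to 2.05 times. The sums were 1.17 times for the 6 elongation factors, 1.14 times for 35 ribosome biogenesis genes, 1.45 times for 11 genes of RNA polymerase I, 1.42 times for 19 initiation factors and 0.891 times for the 16 genes of mTORC1 and TOP control. Of these 5 sums, the first 4 were above those of each other library and the last was below them. Gene by gene, WT library 1 lay above WT library 2 for 4 of 6 elongation factors and 12 of 19 initiation factors. It did so for only 12 of 35 biogenesis genes, 4 of 11 RNA polymerase I genes and 4 of 15 mTORC1 genes tested. The median log2 ratios of these last 3 lists were -0.43, -0.78 and -1.06, so the larger sums of biogenesis and RNA polymerase I genes rested on a minority of genes.

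Few genes of these lists passed the test between groups in the fit to all 8 libraries. There edgeR called none of them in GFPhi against WT or GFPhi against GFPlow. In GFPlow against WT it called 2 of 78 mitochondrial ribosomal protein genes, Mrps6 and Mrpl52, both lower, and no gene of the other lists. With WT library 1 left out, GFPhi against GFPlow gave 2 higher of 6 elongation factors, 3 higher and 1 lower of 12 other TOP genes, and 2 higher of 9 small nucleolar RNA hosts. It also gave 3 higher and 1 lower of 35 biogenesis genes, 1 higher of 11 RNA polymerase I genes, 2 higher and 1 lower of 15 mTORC1 genes tested, 1 higher and 2 lower of 19 initiation factors, and 6 higher and 2 lower of 78 mitochondrial ribosomal protein genes. The background in that fit was 9.66% of all genes, with 5.35% higher and 4.3% lower.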

How the data were processed

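The authors deposited 1 table of counts per Ensembl gene for the 8 libraries; per the labels, cDNA came from the SMART-Seq HT kit and libraries from Nextera XT. The submitters' processing notes name build GRCm38, HTSeq 0.11.2, HISAT2 2.1.0, SAMtools 1.9, R 4.0 and edgeR. The annotation, the strand setting and what became of multiply mapped reads were not given in the sources used here, so antisense and near-identical genes are uncertain. Symbols, coordinates and coding lengths came from GENCODE vM21 (54808 of 54837 identifiers matched), and start sites from RefSeq.

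Genes were filtered with filterByExpr (18851 kept), scaled by TMM and fitted in 1 edgeR 4.0.16 model with 3 group means (robust quasi-likelihood, two-sided, 5 residual degrees of freedom, Benjamini-Hochberg threshold 0.05) in R 4.3.3. Errors are SE of log2 fold changes or SD. Log2 ratios of single libraries use CPM + 0.5. Alternatives used DESeq2 1.42.0, limma 3.58.1, other scalings and filters, a replicate block and each library left out. The fit was tested on simulated data with 200 changed genes. For GFPhi against WT it recovered 5% of genes changed 2-fold and 71% of those changed 4-fold. For GFPhi against GFPlow it recovered 6% and 85%. Most 2-fold changes were thus not called in the simulation. Named genes are those called (or the 5 with the smallest p where fewer than 5 were), the 4 highest and lowest per kilobase, the 5 highest and lowest in WT library 1 against WT library 2, the paralogs, and the 5 with the most variable share. Genes and lists were chosen with earlier results of these data known. Values of a few genes that this rule names are not reported here.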

Additional observations from a re-analysis of the deposited data

How the results depend on the processing

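Among the counts of calls, the share, the median ratio and 23 gene results followed, none reversed its direction. Other genes changed sign, such as Rps29 in GFPlow against WT (-1.12 with 8 libraries, 0.19 without WT library 1 and 0.16 with the replicate block on those 7). Shares of all genes tested follow in brackets. For GFPhi against WT (0 genes called), DESeq2 called 58 (1.7%) and leaving out 1 library gave 0 to 83. For GFPlow against WT (2 called), median-of-ratios scaling gave 1 (3.35%), no filter on low counts 4 (2.61%), and DESeq2 68 (17.2%). For it limma voom called 0 (0.393%), with 59 of the 84 and 1463 of all genes at an unadjusted p under 0.05. For it edgeR on the 5 libraries compared called 0 (0.187%), with 44 of the 84 and 2828 of all genes at that level. Leaving out 1 library gave 0 to 84. For GFPhi against GFPlow (0 called), voom gave 2 (12.1%), the 6 libraries compared 11 (12.3%), and leaving out 1 library 0 to 11. The largest of these counts came without WT library 2 (40.1%, 43.9% and 9.64%). Added after seeing that WT library 1 stood apart, fits to the 7 other libraries called 26 (DESeq2, 11.9%) and 8 (TMM without ribosomal and mitochondrial genes, 5.87%) for GFPlow against WT, and 23 (15.8%) and 9 (9.68%) for GFPhi against GFPlow. The share of WT library 1 was 2.34 times the others' median, or 2.47 times of nuclear protein-coding counts, and the median log2 ratio 1.90, or 1.30 with total counts. The causes were not tested. Of 481 alternatives for 23 gene results, 383 kept direction and side of the threshold, 81 gained a call and 17 lost one.

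The titles number the libraries of both GFPhi and GFPlow M1 to M3. Over all genes tested the deviations of same-numbered libraries correlated at 0.0671, 0.0662 and 0.149. Differently numbered libraries correlated lower, at -0.112 to 0.0517. Over ribosomal protein genes alone the same-numbered values were -0.492, 0.319 and -0.394, within the range of the others (-0.626 to 0.742). The values over all genes were weak. The labels do not say whether M marks a mouse, so the main fit did not treat these libraries as pairs. Pairing remains possible. The replicate block also ties WT libraries 1 and 2, which come from mice of another genotype, to the transgenic libraries of the same number. Its comparisons with WT are thus no check of pairing. With the replicate block, edgeR called 0 genes for GFPhi against WT (0.0%), GFPlow against WT (0.838%) and GFPhi against GFPlow (0.965%). At an unadjusted p under 0.05 there were 18, 41 and 0 of the 84, against 1077, 3215 and 1859 of all genes. On the 7 libraries without WT library 1 the block gave 5 for GFPhi against GFPlow (8.49%), 3 for GFPlow against WT (3.5%) and 0 for GFPhi against WT (0.0195%), with 2 at an unadjusted p under 0.05.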

Other observations

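The genes whose CPM followed the summed ribosomal protein CPM most closely over the 8 libraries, of 8932 ranked, were Atp6v1f, Psmb1, the pseudogene Gm9794, Snrpg and Ndufa3, each at a Pearson r of 0.999. They encode, in order and apart from the pseudogene, subunits of the vacuolar proton pump, the proteasome, the spliceosome and respiratory complex I. The likeness rests on WT library 1: without it the r over 7 libraries was 0.896, 0.928, 0.896, 0.870 and 0.864. Psmb1 stood at 1833 CPM in WT library 1 and 439.6 to 514 in the others, and Snrpg at 1484 and 245 to 285. Over all 8 libraries 346 of the ranked genes (3.87%) had an r above 0.99, so the pattern is shared widely.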
